A study of Homo sapiens with 6 samples.

Results

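ABC efflux transporters are membrane pumps that use ATP to carry drugs, conjugated metabolites, bile constituents and lipids out of cells. Here 10 of them, picked by gene symbol from the ABCB, ABCC and ABCG families, were followed among the 60564 genes with an identifier in the count table. They are ABCG2, ABCB1, ABCB4 and ABCC2, which sit in the apical (canalicular) membrane of hepatocytes, and ABCC1, ABCC3, ABCC4, ABCC5, ABCC6 and ABCC10, which are assigned to the basolateral membrane. RNA sequencing had been done on 6 libraries of HepG2, an established line from a human liver tumour, labelled wild type and grown in DMEM with 10% fetal calf serum. In 3 libraries the cells had received formononetin, a methoxylated isoflavone of legumes, at a labelled 625 (unit written as μm) over 72 h. The 3 control libraries are labelled with the medium alone, no solvent or culture time being named, and by its title the series is about how formononetin from a pair of herbs might act in liver cancer. Nothing in the labels states whether the libraries of a group are separate cultures. The p-values therefore reflect the spread between libraries alone, and that spread may be technical.

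A hepatocyte has a canalicular face, from which bile is formed, and a sinusoidal face turned to the blood. Apical pumps send conjugates, drugs and phospholipid into bile, and basolateral pumps return conjugates and nucleotides to the blood, more so when bile flow is blocked. Several of these genes are known targets of receptors that sense foreign compounds or bile acids, among them the aryl hydrocarbon receptor, NRF2, the pregnane X receptor and the farnesoid X receptor. HepG2 cells are only partly polarised, and transcript levels do not show in which membrane a protein sits, so the sides named here are those known from hepatocytes and other epithelia.

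Counts on genes with an identifier ran from 37465148 to 45682722 in formononetin libraries and from 30848848 to 36243606 in control libraries. The defining hepatocyte markers were present, at a summed 15405 to 16045 CPM in formononetin libraries and 21717 to 22407 CPM in control libraries (CPM are counts per 1000000 of the scaled library total). Of these 6 genes 5 fell in the test given below, against 8.71% lowered over all tested genes. Of the fibroblast and stellate markers COL3A1, DCN and LUM had no counts in any library. The summed list, nearly all of it PDGFRB, was at 3.82 to 4.59 CPM in formononetin libraries and 12.9 to 15.1 CPM in control libraries. The immune markers PTPRC and CD3E were at 0, and that list, nearly all of it LYZ, summed to 977 to 1015 CPM in formononetin libraries and 1201 to 1294 CPM in control libraries. Endothelial markers summed to 24.0 to 28.2 CPM in formononetin libraries and 22.1 to 25.6 CPM in control libraries. Cholangiocyte markers, without CFTR, which was at 0, summed to 1608 to 2506 CPM in formononetin libraries and 1951 to 2189 CPM in control libraries, most of it SPP1. Of the 3 tested genes of that list, SOX9 fell in the same test (log2 fold change -0.25, adjusted p = 0.00965) and 2 were not called. The part of these shifts in the results that follow was not tested.

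All 10 pump genes passed the filter on low counts. Of these, 6 rose, 2 fell and 2 were not called in formononetin libraries, where called means a Benjamini-Hochberg adjusted p under 0.05 in edgeR's quasi-likelihood test over all 22230 genes tested. Over all tested genes, 12.0% were raised and 8.71% lowered, 20.7% in either direction. Upper quartile scaling turned that split round, to 1813 raised and 2737 lowered genes against 2659 and 1937, but left the pumps at 6 raised and 2 lowered. The rises were in ABCG2, ABCC2, ABCB1, ABCC5, ABCC3 and ABCC1 and the falls in ABCB4 and ABCC6. The median log2 fold change over the 10 pumps was 0.39, against -0.01 over all tested genes. In 9 of the 10 the formononetin and control libraries did not overlap in CPM, as was the case for 39.4% of all tested genes. The pumps together took 0.211 to 0.232% of the counts on genes with an identifier in formononetin libraries and 0.153 to 0.158% in control libraries. In bulk RNA, a change in the share of cells that hold a transcript and a change in the amount per cell cannot be told apart.

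**Figure D1:**
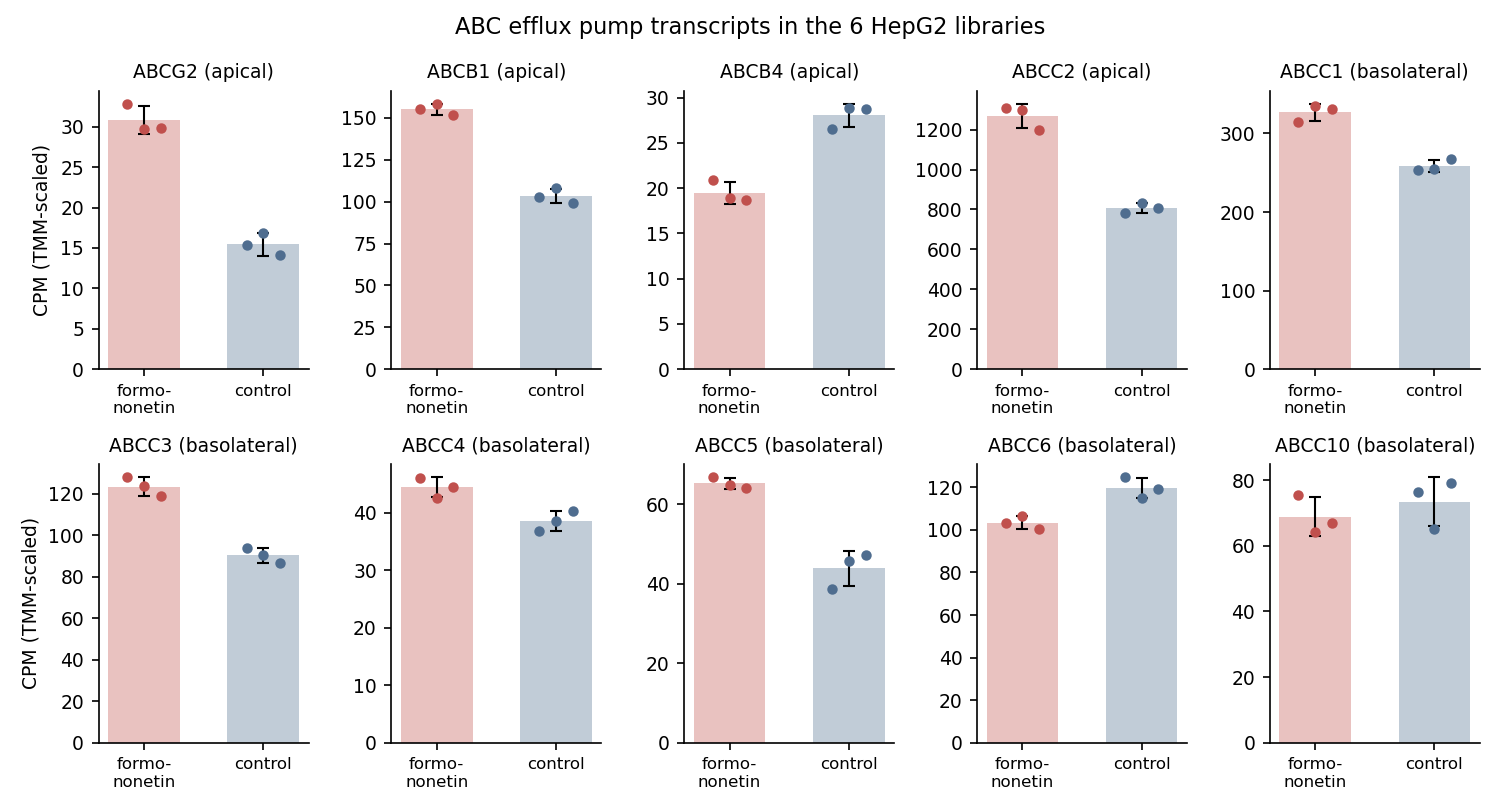
CPM of each pump in the 3 formononetin and 3 control libraries. Points are libraries, bars are group means and error bars are SD, and each panel has its own axis from 0. The groups overlap for ABCC10, while formononetin libraries lie above control libraries in 7 panels and below them for ABCB4 and ABCC6.

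Among the apical pumps the largest change was that of ABCG2, the breast cancer resistance protein, which exports sulphate conjugates, urate and many drugs and is known in human cells as a target of the aryl hydrocarbon receptor. The gene (ENSG00000118777) spans 88090264 to 88231322 on the minus strand of chromosome 4 (GRCh38). It had 32.8, 29.7 and 29.8 CPM in formononetin replicates 1 to 3, against 15.4, 16.9 and 14.1 CPM in control replicates 1 to 3. All treated libraries were well above all control libraries, and the spread within either group was small beside the gap. The means were 30.8 ± 1.76 CPM with formononetin and 15.4 ± 1.39 CPM in control (SD, n = 3 each), giving a log2 fold change of 0.99 ± 0.09 (SE), a fold of 1.99 and adjusted p = 0.000554. It held under all 16 alternative settings in which the test could change, within 0.92 to 1.06 on the log2 scale. ABCG2 ranked 279 among the 2659 raised genes by log2 fold change.

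RefSeq promoter windows of GRCh38.p14 were available for 7 of the pumps and not for ABCB4, ABCC1 or ABCC3. The 250 bases before a transcription start are shown for ABCG2 as the pump that changed most, for ABCC2 as the most abundant and for ABCC10, which was not called. The choice was made with their values known. Where a gene had several starts, the window beside most GENCODE 29 transcript starts was taken. For ABCG2, with 5 windows, that left a tie with a window that holds neither motif, and the window shown lies inside the span of the gene. Capitals mark GCGTG, the core bound by the aryl hydrocarbon receptor with its partner, and TGACNNNGC, the core of the antioxidant response element that NRF2 binds, on either strand, with no overlap between matches of either kind.
ABCG2, chr4:88158910-88159159, minus strand: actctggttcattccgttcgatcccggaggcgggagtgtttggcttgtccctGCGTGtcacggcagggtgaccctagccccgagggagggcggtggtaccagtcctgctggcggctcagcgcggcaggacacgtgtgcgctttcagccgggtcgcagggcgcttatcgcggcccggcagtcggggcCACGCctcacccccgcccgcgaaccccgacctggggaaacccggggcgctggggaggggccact
ABCC2, chr10:99782390-99782639, plus strand: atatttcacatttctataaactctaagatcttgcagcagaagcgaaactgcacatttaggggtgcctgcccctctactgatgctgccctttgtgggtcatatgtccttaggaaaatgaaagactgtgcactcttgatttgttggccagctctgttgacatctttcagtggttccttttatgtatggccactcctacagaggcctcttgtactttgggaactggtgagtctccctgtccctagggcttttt
ABCC10, chr6:43427291-43427540, plus strand: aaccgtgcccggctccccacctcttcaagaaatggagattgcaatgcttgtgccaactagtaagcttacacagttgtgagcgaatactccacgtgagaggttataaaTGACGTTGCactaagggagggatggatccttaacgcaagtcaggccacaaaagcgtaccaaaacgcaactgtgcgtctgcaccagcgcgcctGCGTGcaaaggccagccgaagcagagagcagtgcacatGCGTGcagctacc
The ABCG2 window holds GCGTG or its reverse complement at 2 places, beginning 198 and 64 bases before the start. The ABCC2 window holds neither core. Of the 2 ABCB1 windows, the one beside most transcript starts holds neither, and the other holds a receptor core 53 bases before its start. The ABCC10 window holds 2 aryl hydrocarbon receptor cores and 1 antioxidant response core. Taking 1 window per pump, the receptor core occurred in 3 of 7 and the antioxidant response core in 2 of 7, while 32.2% and 10.9% of all 35116 RefSeq windows of this length hold them. The first count depends on the windows taken, being 2 of 7 with the tied ABCG2 window and between 1 and 4 of 7 over all choices of window, and the second is 1 or 2 of 7. A match of letters is a description and not evidence of binding, and its absence from a window says nothing of the factor.

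ABCC2, the canalicular exporter of bilirubin glucuronide and glutathione conjugates (ENSG00000023839, chromosome 10, 99782640 to 99852594, plus strand), was by far the most abundant of the pumps. Its level was 1308, 1298 and 1198 CPM in formononetin libraries and 784, 834 and 808 CPM in control libraries. The lowest treated library thus stood above the highest control library. The means of 1268 ± 60.9 CPM with formononetin and 809 ± 24.9 CPM in control (SD, n = 3 each) gave a log2 fold change of 0.65 ± 0.05, a fold of 1.57 with adjusted p = 0.000295. A processed pseudogene, NANOGP6, lies within the gene on the opposite strand and shares no exon base with it.

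ABCB1, P-glycoprotein, which extrudes a wide range of hydrophobic drugs (ENSG00000085563, chromosome 7, 87503633 to 87713323, minus strand), had 155, 158 and 152 CPM in formononetin libraries. The control libraries had 103, 108 and 99.4 CPM. Both groups were tight and clearly separate, with means of 155 ± 3.40 CPM with formononetin and 103 ± 4.41 CPM in control (SD, n = 3 each). The log2 fold change was 0.58 ± 0.05 and adjusted p = 0.000423.

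ABCB4 was the apical pump that went the other way. It flips phosphatidylcholine into bile, lies beside ABCB1 on the same strand of chromosome 7 (ENSG00000005471, 87401697 to 87480435) and is a known target of the farnesoid X receptor. Its level was 20.8, 18.9 and 18.7 CPM in formononetin libraries and 26.6, 28.8 and 28.7 CPM in control libraries. Every treated library was below every control library. The means were 19.5 ± 1.19 CPM with formononetin and 28.0 ± 1.28 CPM in control (SD, n = 3 each), and ABCB4 fell by 0.53 on the log2 scale (SE 0.07, adjusted p = 0.00326). The direction and the call held in all 16 alternative settings, with log2 fold changes from -0.60 to -0.48.

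Of the 6 basolateral pumps, 3 rose, 1 fell and 2 were not called. ABCC5, which exports cyclic nucleotides and nucleotide analogues (ENSG00000114770, chromosome 3, 183919934 to 184018015), had 66.7, 64.9 and 64.1 CPM with formononetin and 38.8, 45.7 and 47.1 CPM in control libraries. The control libraries varied more than the treated ones, control replicate 1 being lowest, and the groups did not overlap. The means were 65.2 ± 1.37 CPM with formononetin and 43.8 ± 4.47 CPM in control (SD, n = 3 each), for a log2 fold change of 0.57 ± 0.08 (adjusted p = 0.00285).

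ABCC3, which returns glucuronides and bile acids to the blood (ENSG00000108846, chromosome 17, 50634777 to 50692252), was at 128, 124 and 119 CPM in formononetin libraries and 93.8, 90.7 and 86.6 CPM in control libraries. All treated libraries were higher, and the log2 fold change was 0.45 ± 0.05 (adjusted p = 0.00124). ABCC1, an exporter of glutathione conjugates and leukotrienes (ENSG00000103222, chromosome 16, 15949577 to 16143074, plus strand), was at 315, 335 and 331 CPM with formononetin and 253, 255 and 268 CPM in control. The rise was the smallest of the 6, a log2 fold change of 0.34 ± 0.04 (adjusted p = 0.00205), yet no library of either group reached into the range of the other.

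ABCC4, an exporter of cyclic nucleotides, prostaglandins and bile acids together with glutathione (ENSG00000125257, chromosome 13, 95019829 to 95301475), was at 46.1, 42.6 and 44.5 CPM with formononetin and 36.8, 38.6 and 40.3 CPM in control. The groups did not overlap, but the difference missed the threshold, with a log2 fold change of 0.20 ± 0.06 and adjusted p = 0.0553. It passed when libraries were scaled by their totals (adjusted p = 0.0336) or when unnamed assembled loci were kept (0.0456), over a range of 0.0336 to 0.201 in the 16 alternatives.

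ABCC6, which in liver supports the release of ATP and whose loss causes pseudoxanthoma elasticum (ENSG00000091262, chromosome 16, 16148928 to 16223522, minus strand), lies next to ABCC1. It was at 103, 106 and 100.3 CPM with formononetin and 125, 115 and 119 CPM in control libraries. All treated libraries were lower, and ABCC6 fell by 0.21 on the log2 scale (SE 0.05, adjusted p = 0.0224). This call was fragile. ABCC6 has the near-identical partial copies ABCC6P1 and ABCC6P2, whose reads may be assigned to either, and the sum of all 3 missed the threshold (-0.16 on the log2 scale, adjusted p = 0.0803). The call also ended if either replicate 1 or replicate 3 of either group was left out, with the replicate number as a block, with library totals and with no low-count filter (adjusted p from 0.00675 to 0.0803 over all 17 alternatives).

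ABCC10, a pump for taxanes and glucuronides (ENSG00000124574, chromosome 6, 43427366 to 43450430, plus strand), was at 75.5, 64.3 and 66.8 CPM with formononetin and 76.3, 65.1 and 79.0 CPM in control. The groups overlapped throughout. The log2 fold change was -0.09 ± 0.09 (adjusted p = 0.536), with a 95% interval of -0.27 to 0.09. The gene shares 79 exon bases with DLK2 on the opposite strand, and the strand setting of the counting is not given.

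**Figure D2:**
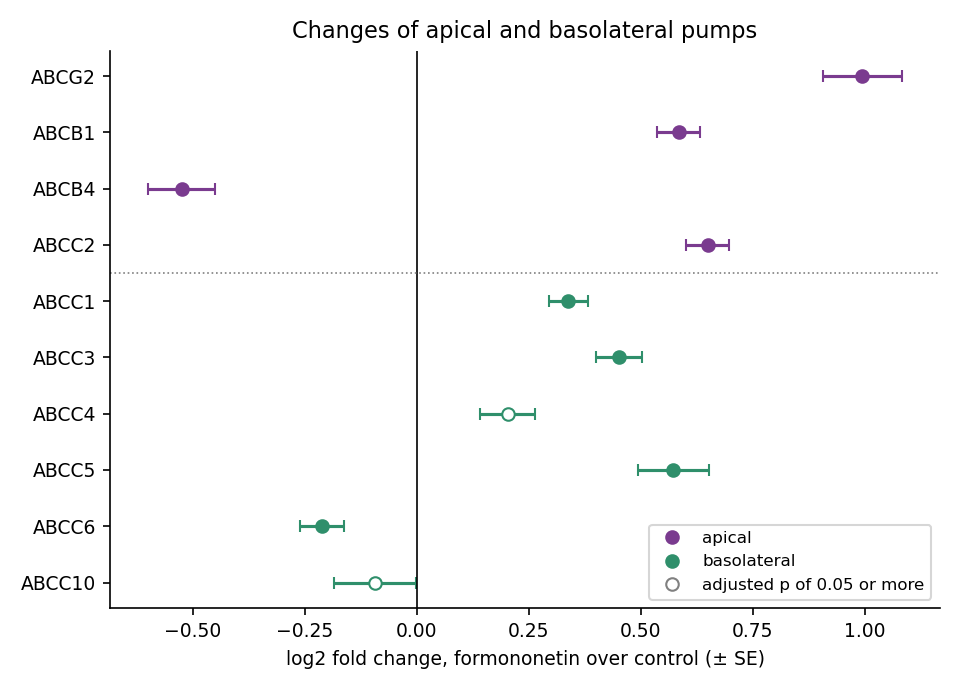
Log2 fold change of each pump, formononetin over control, with its standard error from the fit over all genes. Filled points have an adjusted p under 0.05, and the dotted line parts apical from basolateral pumps. ABCG2 stands at 0.99 and ABCB4 at -0.53, so the apical pumps span a wider range than the basolateral ones (-0.21 to 0.57).

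Set side by side, the apical pumps had a median log2 fold change of 0.62, with 3 of 4 raised and 1 lowered, and the basolateral pumps had one of 0.27, with 3 of 6 raised and 1 lowered. The sets are small, they overlap, and no test of the difference between them was made. Summed per exon length, apical transcripts came to 197 ± 8.56 in formononetin libraries and 128 ± 4.03 in control libraries, in counts per kilobase of exon per 1000000 (SD, n = 3 each). Basolateral transcripts came to 89.1 ± 0.717 with formononetin and 76.8 ± 1.91 in control. Their ratio was 2.28, 2.24 and 2.12 in formononetin replicates 1 to 3 and 1.62, 1.77 and 1.61 in control replicates 1 to 3. The ratio was thus higher in every treated library. Most of the apical sum was ABCC2, and without ABCC2 the ratio was 0.390 to 0.404 with formononetin and 0.301 to 0.343 in control.

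Ratios between pumps of the same library do not depend on how libraries are scaled. ABCB1 and ABCB4, neighbours that moved in opposite directions, gave count ratios of 7.45, 8.38 and 8.11 in formononetin libraries and 3.86, 3.75 and 3.46 in control libraries. The ratio was higher in every treated library than in any control library. ABCC1 over ABCC6, neighbours on opposite strands of chromosome 16, was 3.05 to 3.30 with formononetin and 2.03 to 2.25 in control. The ABCC6 counts in it are uncertain because of the near-identical copies, and no ratio with those copies added was made. For ABCC2 over ABCC3, the apical and basolateral exporters of glucuronides, the ratio was 10.1 to 10.5 with formononetin and 8.36 to 9.33 in control. These ratios use counts that are not corrected for length, so only their change between groups can be read, and the pairs were chosen with the values known.

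**Figure D3:**
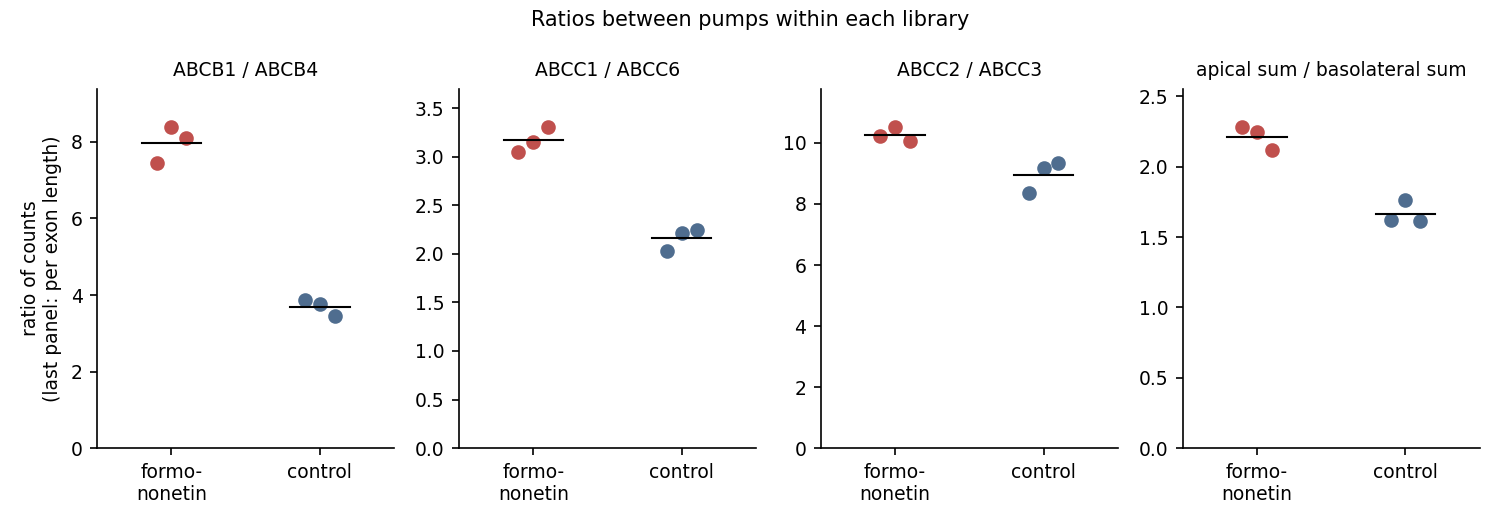
Ratios between pumps in each library, in counts for the gene pairs and in counts per exon length for the summed sides. Points are libraries, lines are group means and axes start at 0. Formononetin libraries lie above control libraries in all 4 panels, by most for ABCB1 over ABCB4 (7.45 to 8.38 with formononetin, 3.46 to 3.86 in control).

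In counts per kilobase of exon per 1000000, which allow levels to be compared between genes, ABCC2 stood at 162 ± 7.78 with formononetin and 103 ± 3.18 in control, above 99.1% of the tested genes that have a length. ABCC1 came next, at 43.2 ± 1.41 with formononetin and 34.2 ± 1.04 in control, followed by ABCB1 at 26.7 ± 0.586 with formononetin and 17.8 ± 0.759 in control (SD, n = 3 each). These places were the same in both groups, with no overlap between neighbours. ABCC6 followed in both, at 13.7 ± 0.413 with formononetin and 15.8 ± 0.633 in control. Its range overlapped that of ABCC3, the fifth, in formononetin libraries and lay clear of it in control libraries. In control, the ranges of ABCC3 and ABCC10 overlapped, as did those of ABCC5 and ABCB4. The order changed at the low end. ABCG2 stood above ABCC5 and ABCC4 with formononetin, at 6.10 ± 0.349, and was the lowest of the pumps in control, at 3.06 ± 0.275. ABCB4 was the last with formononetin, at 2.52 ± 0.154, against 3.63 ± 0.166 in control. Exon lengths are unions over all annotated transcripts, so these levels are understated for genes with many long or rare exons.

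**Figure D4:**
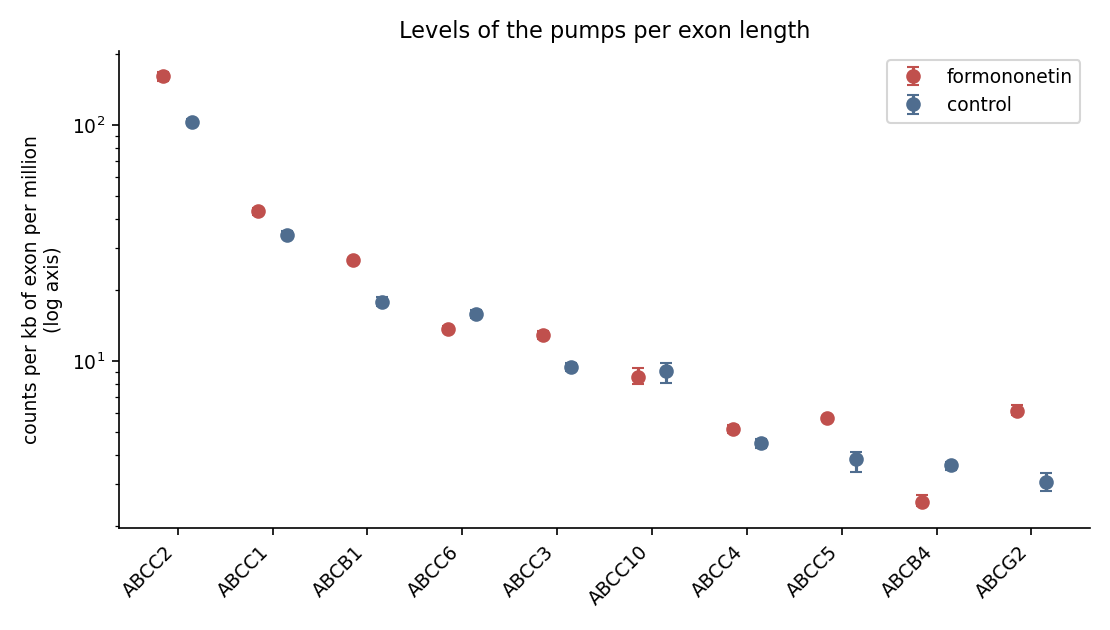
Level of each pump in counts per kilobase of exon per 1000000 on a log axis, ordered by the control level. Points are group means of 3 libraries and bars reach from the lowest to the highest library. ABCC2 stands at 162 with formononetin and 103 in control, and ABCG2 stands above ABCC5 and ABCC4 with formononetin and last in control.

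The wider ABC family held 38 further genes, of which 25 were tested, 11 rose and none fell in the edgeR test, with a median log2 fold change of 0.19. All tested genes had 12.0% raised, 8.71% lowered and a median of -0.01. ABCB9, a lysosomal peptide transporter, was at 12.1 ± 0.370 CPM with formononetin and 7.42 ± 0.185 CPM in control (0.70 ± 0.09 on the log2 scale, adjusted p = 0.00174). ABCB10, a transporter of the inner mitochondrial membrane, was at 44.7 ± 0.763 CPM with formononetin and 28.2 ± 1.37 CPM in control (0.66 ± 0.06, adjusted p = 0.000561). Among the others that rose were ABCA1, ABCA5, TAP2, ABCB6, ABCB8, ABCD3, ABCE1 and ABCF3, whose log2 fold changes ran from 0.20 to 0.52. DESeq2 and limma voom also lowered 0 of them, and ABCA7 alone was lower at an unadjusted p under 0.05 (1 gene with each tool). Raised genes numbered 6 to 8 when a library was left out, and 6 or 7 without control replicate 1 or 3 or any formononetin library. ABCB11, the bile salt export pump of the canaliculus, could not be assessed, since it had 0, 3 and 0 counts in formononetin libraries and 0, 3 and 4 in control libraries.

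Solute carriers that bring substrates into the cell or extrude them beside the pumps were also followed. SLCO1B1 and SLCO1B3, the main uptake carriers for organic anions in hepatocytes, had at most 9 counts in any library and were not tested. Of 11 tested genes of this list, 3 rose and 2 fell, against 12.0% raised and 8.71% lowered over all tested genes. Among the 3 was ATP8B1, a phospholipid flippase and not a solute carrier (0.23 ± 0.06 on the log2 scale, adjusted p = 0.025). SLC47A1, which extrudes organic cations at the apical membrane, was at 57.8, 102 and 53.9 CPM with formononetin and 37.1, 38.8 and 37.7 CPM in control. Formononetin replicate 2 was far above the other treated libraries. Its log2 fold change was 0.91 ± 0.23 (adjusted p = 0.0305) overall and 0.56 without that library, and leaving out any control library or using limma voom ended the call (adjusted p from 0.000107 to 0.0877 over the 16 alternatives). SLCO4C1, a carrier of organic anions, rose by 0.45 ± 0.10 (adjusted p = 0.0169), a call that ended without formononetin replicate 2, without control replicate 2 or 3 and under a replicate block (highest adjusted p 0.0614). SLC22A9, which carries organic anions, was at 1.86 ± 0.290 CPM with formononetin and 3.68 ± 0.581 CPM in control (-0.98 ± 0.18, adjusted p = 0.00986). SLC10A1, the sodium-dependent bile acid importer, was near the limit of detection, at 0.825 ± 0.148 CPM with formononetin and 1.39 ± 0.175 CPM in control. Its call (-0.75 ± 0.22, adjusted p = 0.0485) was lost in 11 of 16 alternatives, among them the removal of any single library (highest adjusted p 0.145).

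Among 15 regulators of efflux genes, 3 rose and 4 fell, against 12.0% raised and 8.71% lowered over all tested genes. NR1I2, the pregnane X receptor, which induces ABCB1 and ABCC2 in human hepatocytes, was at 22.8, 21.2 and 18.8 CPM with formononetin and 9.08, 13.7 and 11.3 CPM in control. All treated libraries were higher (0.88 ± 0.15 on the log2 scale, adjusted p = 0.00736). HNF4A, a hepatocyte transcription factor, rose by 0.44 ± 0.09 (adjusted p = 0.012). NR1H4, the farnesoid X receptor that induces ABCB4, was at 50.1, 44.1 and 45.5 CPM with formononetin and 75.4, 80.1 and 77.6 CPM in control. It was lower in every treated library (-0.74 ± 0.06, adjusted p = 0.000486). NR0B2, the remaining raised regulator, was higher in every treated library (0.30 ± 0.07, adjusted p = 0.0202). AHR, the aryl hydrocarbon receptor, was at 121 ± 5.32 CPM with formononetin and 143 ± 8.43 CPM in control (-0.24 ± 0.06, adjusted p = 0.0265), and its call ended in 7 of 16 alternatives, among them the removal of replicate 2 or replicate 3 of either group (highest adjusted p 0.0892). NFE2L2, which encodes NRF2, was at 228, 237 and 199 CPM with formononetin and 209, 196 and 59.0 CPM in control, control replicate 3 being far below the rest. It was not called (0.52 ± 0.41 on the log2 scale, adjusted p = 0.428), and the value was 0.13 without control replicate 3. Whether the levels of these regulators bear on those of the pumps was not tested.

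Of 9 tested genes for proteins that anchor pumps at the apical membrane or deliver them there, 2 rose and 2 fell. Over all tested genes, 12.0% were raised and 8.71% lowered. STX3, an apical syntaxin, was at 34.8, 56.5 and 34.5 CPM with formononetin and 21.8, 22.7 and 24.5 CPM in control, formononetin replicate 2 again being highest. Its log2 fold change was 0.87 ± 0.19 (adjusted p = 0.0189), and 0.59 without that library, and leaving out any control library ended the call (highest adjusted p 0.0637). RAB11A, a GTPase of recycling endosomes, changed by 0.22 ± 0.06 (adjusted p = 0.0453), PDZK1, a scaffold of apical transporters, by -0.31 ± 0.07 (adjusted p = 0.0237) and MYO5B, an apical transport motor, by -0.18 ± 0.05 (adjusted p = 0.0354). The calls of RAB11A, PDZK1 and MYO5B were lost in 10, 6 and 8 of 16 alternatives, where adjusted p reached 0.154, 0.0795 and 0.115. For RAB11A these included leaving out any library except formononetin replicate 2, for PDZK1 formononetin replicate 1 or 2 and control replicate 1 or 3, and for MYO5B any library except formononetin replicate 3.

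Glutathione and glucuronic acid go into the conjugates carried by the ABCC pumps. The list named for their supply holds synthesis enzymes, a cystine carrier and glutathione transferases. Of its 9 tested genes 6 rose, with a median of 0.38, against 12.0% raised over all tested genes. In edgeR, DESeq2 or limma voom 0 were lowered, also at an unadjusted p under 0.05. GCLM, the modifier subunit of glutamate-cysteine ligase, was at 65.6, 64.8 and 70.5 CPM with formononetin and 20.4, 24.6 and 22.3 CPM in control (1.58 ± 0.08, adjusted p = 8.52e-05). MGST1, a membrane-bound glutathione transferase, was at 137, 143 and 166 CPM with formononetin and 53.1, 88.0 and 81.6 CPM in control (1.0 ± 0.18, adjusted p = 0.00824). Both were higher in every treated library than in any control library.

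**Figure D5:**
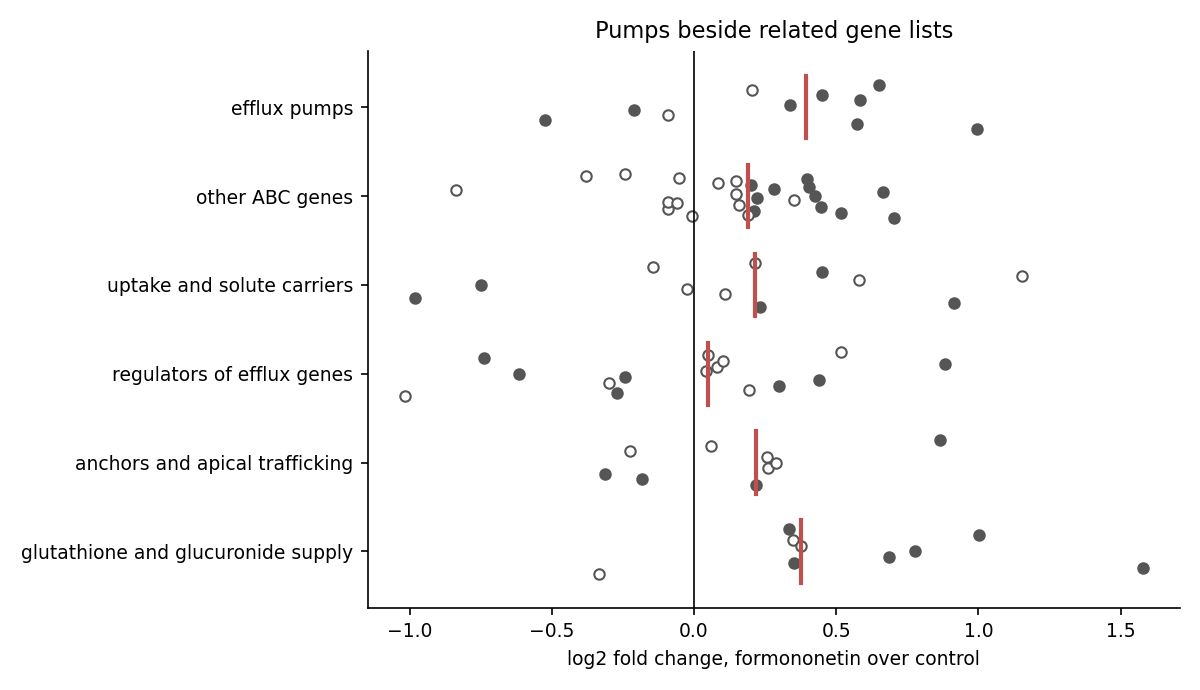
Log2 fold changes, formononetin over control, of the tested members of 6 gene lists. Each point is a gene, filled where adjusted p is under 0.05, vertical lines are list medians and the vertical scatter within a list carries no meaning. The median is 0.39 for the pumps, 0.38 for glutathione and glucuronide supply and 0.05 for the regulators.

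ABCG2 was compared with 8594 other genes at a mean log2 CPM of at least 3. Symbols formed like those of clones or pseudogenes were left out, which also drops ordinary genes with a hyphen or a final P. Nearest in centred log2 CPM over the 6 libraries were the 3 genes SULT1A4, KLF11 and TALDO1, at Euclidean distances of 0.19, 0.21 and 0.22. SULT1A4, a sulphotransferase gene with a near-identical copy that makes its counts uncertain, was at 34.9 ± 1.51 CPM with formononetin and 16.9 ± 0.518 CPM in control (SD, n = 3 each). KLF11, a zinc finger transcription factor, changed by 1.02 on the log2 scale, and TALDO1, the transaldolase of the pentose phosphate pathway, by 0.96. With 6 libraries in 2 groups, this likeness says little more than that the size of change was alike.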

How the data were processed

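Libraries were made from 500 ng of total RNA with a stranded mRNA kit, per the labels' protocols. The authors deposited 1 table of raw counts per gene, not normalized. The submitters' processing notes name GRCh38, STAR 2.5.3a and StringTie 1.3.1c without roles, and name no counter, strand setting or annotation. Assembled loci with no gene name (2165 of 62729 rows, 3.82 to 5.62% of counts) were left out. Symbols came from a table matching 60295 of 60564 identifiers, coordinates and exon lengths from GENCODE 29.

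Genes kept by filterByExpr (22230) were scaled by TMM and tested with edgeR 4.0.16 (R 4.3.3, quasi-likelihood, 3 against 3, two-sided, Benjamini-Hochberg over all tested genes, threshold 0.05). CPM use TMM-scaled totals. The SE is the log2 fold change over the square root of F, and 95% intervals are normal ones from that SE. The fit was also run on independent counts simulated from its own means and dispersions, which cannot show whether the real libraries are separate cultures. Alternatives were DESeq2 1.42.0, limma 3.58.1 voom, other scalings and filters, a replicate block, each library left out, assembled loci kept, mitochondrial and the 10 largest genes removed, and ABCC6 summed with its copies.

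The pumps and lists were chosen with earlier results of these data known. Named beside the 10 pumps were the 2 largest called rises and 2 falls of each list, AHR, NFE2L2, NR1I2, NR1H4 and 3 genes of like pattern. ABCB11, SLCO1B1, SLCO1B3, ATP8B1, NR0B2, ABCA7, the markers at 0, LYZ, PDGFRB, SPP1, SOX9 and further raised ABC genes were named after their values were seen. A few genes of these lists are counted but not reported here by name. No library was a duplicate of another (chi-square per degree of freedom 13.5 to 34.6 within groups). Figures used matplotlib 3.10.9.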

Additional observations from a re-analysis of the deposited data

How the results depend on the processing

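The 6 raised pumps and ABCB4 kept their direction and call in each of the 16 alternatives that could change their call (centring on the median gene shifts fold changes and leaves p as it is). Of the lowered pumps, ABCC6 was lost in 8 of 17 settings, so that 1 pump was lowered with library totals, with no low-count filter or with the replicate block, and 1 to 2 when a library was left out. The apical median of 0.62 was 0.54 under upper quartile scaling, 0.66 with library totals and 0.60 to 0.64 with a library left out. The basolateral median of 0.27 was 0.19 under upper quartile scaling, 0.31 with library totals, 0.29 with no filter, 0.26 with a filter of 1 CPM in 3 libraries, 0.28 with assembled loci kept or with centring on the median gene, and 0.25 to 0.30 with a library left out. The wider ABC family had 7 raised under upper quartile scaling, 6 with the replicate block and 6 to 8 with a library left out, against 11, and 1 lowered (ABCA7) under upper quartile scaling or the 1 CPM filter, against 0. Over all genes 2659 were raised and 1937 lowered, 1813 and 2737 under upper quartile scaling, and 1703 to 2189 and 1272 to 1478 with a library left out. The cause was not tested.

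Deviations from group means of libraries with the same number correlated at -0.0218 to 0.00916 across genes. Libraries of the same number thus shared no signal across genes, which cannot show whether they were cultured or prepared together. The block left 1921 genes raised and 1362 lowered.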
